A study of Mus musculus with 10 samples.

Results

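The amino acid transporters described here are the genes of the Slc1a, Slc3a, Slc6a, Slc7a, Slc36a, Slc38a and Slc43a families, picked by mouse gene symbol with no use of their measured levels. The rule found 62 genes among the 21792 genes with values, of which 21650 carried a symbol. Of the 62, Slc36a3os, Slc6a19os and Slc7a6os are neighbours named after a transporter on the opposite strand, and 59 are transporter genes or close relatives of them.

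RNA was sequenced from the kidney cortex of 10 wild type mice. Sham mice (n = 4) received PBS. Mice with aristolochic acid nephropathy (AAN, n = 6) received aristolochic acid, a plant toxin of the proximal tubule, as a single intraperitoneal dose of 5 mg/kg. Kidneys of both groups were taken on day 28, and the study's methods give male C57BL/6 animals aged 8 weeks for this model. Mice are named below by the tags in their labels.

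The kidney filters large amounts of amino acids into the urine and takes nearly all of them back in the proximal tubule. Na+-coupled carriers and exchangers in the brush border bring them into the cell, and another set in the basolateral membrane passes them on to the blood. Several of these carriers are pairs, in which a heavy subunit (rBAT, Slc3a1, or 4F2hc, Slc3a2) carries a light subunit of the Slc7a family to the membrane. Other members of the same families serve cell nutrition and are low in resting epithelium, such as LAT1 (Slc7a5) for leucine, SNAT1 and SNAT2 (Slc38a1, Slc38a2) for glutamine and other small neutral amino acids, and xCT (Slc7a11) for cystine.

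Levels are FPKM, fragments scaled to gene model length and sequencing depth, so levels of different genes can be compared per length. Library depth recovered from the low values was 15.8 to 17.5 M fragments in sham and 13.4 to 16.5 M in AAN. Mitochondrially encoded genes held 39.5 to 61.4% of all FPKM in sham and 21.4 to 55.0% in AAN. The median gene was 0.75 higher in AAN on the log2 scale as deposited, and 82.3% of the 17129 genes tested lay above 0, so the main changes below are also given relative to that shift or after rescaling by the median of ratios, which brought the median gene to 0.065. Proximal tubule markers fell, with 8 of 11 lower and a summed level of 21920 to 36823 FPKM in sham against 1273 to 4141 in AAN. Kap, an androgen-driven gene, held most of that sum in sham. The other 10 markers summed to 3464 to 5235 FPKM in sham and 765 to 2858 in AAN. Markers of injured tubule (8 of 8 higher, sums of 38.1 to 63.3 against 321 to 709 FPKM), macrophages (6 of 6, 34.3 to 53.1 against 539 to 1846) and fibroblasts (6 of 6, 31.1 to 47.1 against 128 to 315) rose. Leukocyte (5 of 5), T cell (5 of 5) and B cell markers (3 of 3 tested) were also higher, and 1 of 5 thick limb and 1 of 7 distal tubule and collecting duct markers were lower (3 and 4 after the median of ratios). Havcr1 and Krt20, both markers of injured tubule, were listed at 0 in 1 sham mouse each. Their part in the changes of the transporters was not tested, and in bulk tissue fewer cells of a type cannot be told apart from less RNA per cell. AAN mouse B614 stood apart, with the highest sum of proximal tubule markers of its group (4141 against 1273 to 2969 FPKM, or 2858 against 765 to 1156 without Kap), a thick limb sum of 2002 against 201 to 528, and the lowest macrophage sum (539 against 1100 to 1846). Among the 36 transporters with a mean of at least 1 FPKM in a group, B614 was the highest of the 6 AAN mice for 18 and the lowest for 8.

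The transporters called lower in AAN were 3 brush border carriers and 1 osmolyte carrier. Of those called higher, 10 were carriers of cell nutrition. None of the 5 genes grouped as basolateral was called as deposited. Each gene was placed in 1 group, so the osmolyte carrier Slc6a13 was not counted as basolateral, whichever membrane it lies in. The minimum for testing, 0.1 FPKM on average, was reached by 47 members, and the other 15 averaged at most 0.0814 FPKM. With limma on log2(FPKM + 0.1), a gene was called where its adjusted p was 0.05 or less and its change 2-fold or more. By this rule 20 of the 47 (42.6%) were higher in AAN, where 35.8% of all genes tested were higher, and 4 (8.51%) were lower, where 3.43% of all genes were lower. A further 3 higher and 2 lower members passed the adjusted p alone, which makes 23 higher and 6 lower, against 55.4% and 6% of all genes. After rescaling by the median of ratios, 10 members were higher and 10 lower, against 19% and 10.5% of all genes. After quantile normalization, 8 were higher and 7 lower, against 13% and 12.6%. The share higher was therefore near that of all genes as deposited. Of the 20 higher members, 6 had a sham mean under 0.1 FPKM and reached the test through their AAN level. Among the 40 members with a sham mean of at least 0.1 FPKM, 14 (35%) were higher and 4 (10%) lower, against 30.5% and 3.9% of all genes with such a sham mean. The levels of the groups did not overlap for 19 of the 47 (40.4%), against 43.6% of all genes. Without B614 the counts were 19 higher and 5 lower, and without sham mouse B634 they were 18 and 5.

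**Figure D1:**
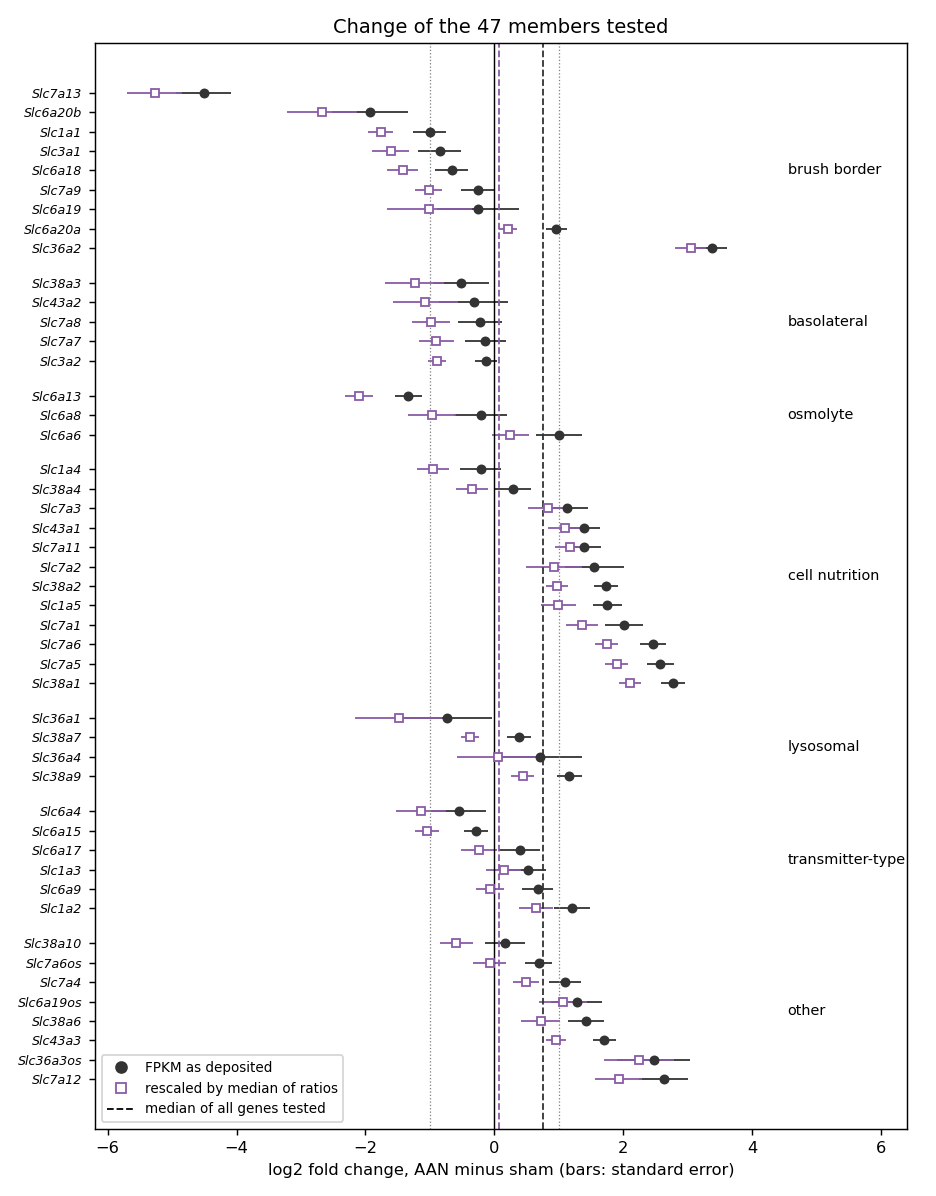
Log2 fold change (AAN minus sham, FPKM + 0.1) of the 47 members tested, by role group, with standard errors. Filled points are FPKM as deposited, open squares are values rescaled by the median of ratios, dashed lines are the medians of all genes tested (0.75 and 0.065) and dotted lines mark a 2-fold change; the brush border genes lie mostly to the left and the cell nutrition genes to the right.

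The summed level of all members was 516 to 1081 FPKM in sham and 465 to 772 FPKM in AAN, with B614 the highest AAN mouse. More members were detected in AAN: 46 to 48 were above 0 in a sham mouse and 54 to 59 in an AAN mouse. Those above 1 FPKM numbered 26 to 29 in sham and 33 to 36 in AAN. Across all genes, 16690 to 17639 were above 0 in sham and 19158 to 19636 in AAN. Counts by sham level, which is part of the change itself, were as follows. Of the 15 members with a sham mean of at least 10 FPKM, 1 was higher and 4 lower, with a median log2 change of -0.26. Of the 20 tested members under 1 FPKM in sham, 15 were higher and none was lower, with a median of 1.39. Of these 20, 7 had a sham mean under 0.1 FPKM and reached the test through their AAN level. The corresponding counts after the median of ratios were 0 higher and 7 lower in the first set, and 10 higher and 1 lower in the second. Shares of all genes at these sham levels were not computed, so the counts are not read as particular to the transporters.

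Among the 9 brush border genes, all tested, 3 were lower, 1 was higher and 3 passed the adjusted p without reaching a 2-fold change, with a median log2 change of -0.66. Over all genes 3.43% were lower and 35.8% higher. After the median of ratios 6 of the 9 were lower and 1 higher, against 10.5% and 19% of all genes. The largest fall was that of Slc7a13 (ENSMUSG00000041052, GRCm38 chr4:19818725-19842218, plus strand). It encodes AGT1, a light subunit that pairs with rBAT and carries cystine and acidic amino acids in the late proximal tubule. Its level was 229, 110, 90.6 and 189 FPKM in sham mice B607, B634, B636 and H249. In the 6 AAN mice the lowest level was 2.22, the median 6.4 and the highest 11.4 FPKM. The lowest sham mouse thus lay far above the highest AAN mouse, which was B614. The means were 155 ± 65.5 (SD, n = 4) and 7.07 ± 3.53 (SD, n = 6), the AAN mean being 4.57% of the sham mean, and the log2 change was -4.51 ± 0.43 (SE, limma, adjusted p = 3.73e-06), or -5.26 relative to the median gene. Slc7a13 held rank 2 of the 62 members by its sham mean and rank 20 by its AAN mean. It made up 14.1 to 21.4% of the summed member level in sham and 0.396 to 2.33% in AAN.

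Slc3a1 (GRCm38 chr17:85028376-85064236, plus strand), the heavy subunit rBAT, was the member with the highest mean in both groups. Sham mice had 272, 93.3, 115 and 191 FPKM. AAN mice ranged from 59.4 through a median of 83.3 to 155 FPKM, the highest again being B614. The groups overlapped, and the change of -0.85 ± 0.33 (SE, limma, adjusted p = 0.0435) passed the adjusted p but not the fold limit. It passed both after the median of ratios (-1.61), and also as deposited without B614 (-1.02) or without B634 (-1.09). The adjusted p was over 0.05 without any one of B607 (-0.57), H249 (-0.74), A483 (-0.83), B630 (-0.74), B639 (-0.76), B642 (-0.88) or B666 (-0.85), where limma gave 0.0557 to 0.138, and among mice with B tags (0.16). Prepl overlaps Slc3a1, and 24.8% of the 50-base windows of the Slc3a1 exons are shared with it, so part of the level may belong to either gene. Slc7a9 (chr7:35448796-35466036, plus strand) encodes b0,+AT, the pore of the cystine and basic amino acid exchanger whose loss causes cystinuria. It had 33.9, 16.9, 24.9 and 27.4 FPKM in sham and 13.4 to 33.0 FPKM (median 19.6) in AAN. Its means of 25.8 ± 7.01 and 21.8 ± 6.86 FPKM overlapped widely, and the change of -0.26 ± 0.26 did not pass (limma, adjusted p = 0.397); after the median of ratios it was -1.02 and passed.

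The order of the light subunits of rBAT was reversed in every AAN mouse. Of the summed level of Slc7a9 and Slc7a13, Slc7a13 held 78.4 to 87.3% in each sham mouse and 7.79 to 44.6% in each AAN mouse. The sum of both was 0.967 to 1.36 times the level of Slc3a1 in sham and 0.278 to 0.423 times in AAN. A difference within a mouse is not moved by a scaling factor between mice where both levels are well above the added 0.1 FPKM. For low levels, such as those of Slc7a11 in sham, it can be moved. The 7 pairs tested in this way were chosen with earlier results of these data known, which their p-values do not allow for. The within-mouse difference Slc7a13 minus Slc7a9, on log2(FPKM + 0.1), went from 2.52 in sham to -1.73 in AAN, a change of -4.25 ± 0.48 (SE). It was higher in every sham mouse than in any AAN mouse, and the exact permutation p of 0.00476 was the smallest that 210 splits of 4 and 6 mice can give (adjusted p over the 7 pairs = 0.0111). The difference Slc7a9 minus Slc3a1 went from -2.61 to -2.03, a change of 0.59 ± 0.20 (exact permutation p = 0.00952, adjusted p = 0.0167). The groups of this pair overlapped narrowly.

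Slc6a18 and Slc6a19 lie side by side on chromosome 13 and encode brush border carriers of neutral amino acids, B0AT3 and B0AT1. Slc6a18 (chr13:73661752-73678023, minus strand), the carrier of the late proximal tubule in mice, had 97.1, 54.2, 61.8 and 94.6 FPKM in sham and 33.3 to 77.4 FPKM (median 45.1) in AAN. The groups overlapped through AAN mice B630 and B666, and the change of -0.66 ± 0.26 (limma, adjusted p = 0.0409) fell short of 2-fold as deposited and reached it after the median of ratios (-1.42). The adjusted p was over 0.05 without any one of B607 (-0.53), H249 (-0.55), A483 (-0.63), B614 (-0.60), B639 (-0.66) or B642 (-0.56), where limma gave 0.0603 to 0.119, and among mice with B tags (0.181). Slc6a19 (chr13:73679745-73704865, minus strand), defective in Hartnup disorder, had 14.7, 15.8, 23.9 and 7.34 FPKM in sham. In AAN it was 59.6 FPKM in B614 and 3.66 to 18.2 FPKM in the other 5 mice, which lay within or below the sham range. Its change of -0.25 ± 0.63 did not pass (limma, adjusted p = 0.742) and was -0.71 without B614. The within-mouse difference Slc6a18 minus Slc6a19 was 2.38 in sham and 1.97 in AAN, a change of -0.41 ± 0.84 with an exact permutation p of 0.686, and 0.11 without B614.

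The paralogues Slc6a20a and Slc6a20b, neighbours on chromosome 9, had changes of opposite sign. SIT1, the Slc6a20a product, takes up proline and related imino acids. Their coding sequences are shown over a stretch of 90 bases because reads of one can be assigned to the other; capitals mark the bases that differ, and 82 are identical (GENCODE M21 transcripts on GRCm38, 5′ to 3′, coding positions 67 to 156 of Slc6a20a and 196 to 285 of Slc6a20b).
Slc6a20a: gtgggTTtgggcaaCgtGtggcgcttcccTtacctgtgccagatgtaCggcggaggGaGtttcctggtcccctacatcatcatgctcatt
Slc6a20b: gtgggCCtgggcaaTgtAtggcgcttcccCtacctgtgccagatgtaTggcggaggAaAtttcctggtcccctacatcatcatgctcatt
Over 1776 aligned coding bases the genes are 91.4% identical, the longest identical run is 321 bases, and 15.3% of the 50-base windows of Slc6a20a occur in Slc6a20b. With all other genes included, 26.7% of the windows of Slc6a20a and 27.9% of those of Slc6a20b are shared. The split of reads between them is therefore uncertain. Slc6a20b (chr9:123590800-123632565, minus strand) had 27.3, 6.09, 12.3 and 17.1 FPKM in sham and 1.27 to 11.9 FPKM (median 3.73) in AAN. Only B614 exceeded the lowest sham mouse, B634, and the change was -1.92 ± 0.59 (limma, adjusted p = 0.0138). It was -1.87 among mice with B tags, 3 sham and 5 AAN, where it missed the threshold (limma, adjusted p = 0.053). Slc6a20a (chr9:123634770-123678885, minus strand) had 4.63, 2.87, 3.63 and 3.85 FPKM in sham and 6.38 to 8.73 FPKM (median 6.96) in AAN. The groups did not overlap, with a change of 0.96 ± 0.17 (limma, adjusted p = 0.000436) that stayed just under 2-fold. This rise was close to the median gene: it was 0.21 relative to it and 0.21 after the median of ratios (adjusted p = 0.233). The level of Slc6a20b was 2.12 to 5.89 times that of Slc6a20a in sham mice and 0.181 to 1.68 times in AAN mice, so the order of the paralogues was reversed in every AAN mouse but B614.

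Slc1a1 (chr19:28835049-28913960, plus strand) encodes EAAT3, the brush border carrier of glutamate and aspartate. It had 31.8, 16.1, 23.1 and 26.7 FPKM in sham and 7.44 to 18.6 FPKM (median 11.9) in AAN. B614 alone reached into the sham range. The change of -1.0 ± 0.25 (limma, adjusted p = 0.00457) sat on the fold limit: it was -0.86 without sham mouse B607, -0.95 without H249, -0.87 without AAN mouse B630 and -0.97 without B639, so the call was lost in each case, while the median of ratios gave -1.76. The gene 4430402I18Rik shares 31.0% of the exonic windows of Slc1a1. Slc36a2 (chr11:55158470-55185077, minus strand), which encodes PAT2, a proton-coupled carrier of proline and glycine, went the other way. It was listed at 0 in 3 sham mice and at 0.0362 FPKM in B636, and at 0.589 to 1.3 FPKM (median 1.11) in AAN, without overlap. The fitted change was 3.37 ± 0.24 (limma, adjusted p = 4.77e-07), a value that depends on the 0.1 FPKM added to each level, and the AAN mean was worth at most 52.7 fragments per mouse.

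**Figure D2:**
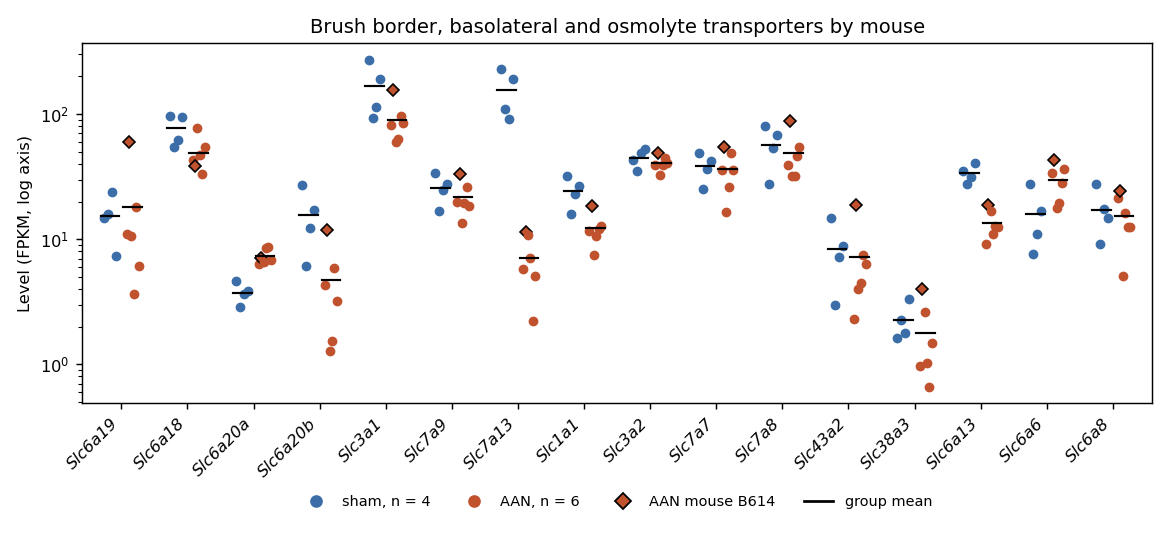
Levels (FPKM, log axis) of the brush border, basolateral and osmolyte carriers in each mouse; points are mice, diamonds mark AAN mouse B614 and lines are group means. Slc7a13 shows the widest gap between 4 sham mice at 90.6 to 229 FPKM and 6 AAN mice at 2.22 to 11.4 FPKM. The genes grouped as basolateral overlap.

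None of the 5 genes grouped as basolateral was called in either direction by limma as deposited, and 0 had an unadjusted p under 0.05. After the median of ratios Slc38a3 was called lower, and Slc3a2 (-0.89, limma, adjusted p = 0.000282), Slc7a7 (-0.90, 0.0174) and Slc7a8 (-0.98, 0.0158) passed the adjusted p without a 2-fold change. Slc7a8, the light subunit LAT2 for neutral amino acids, had 80.1, 27.4, 53.4 and 67.7 FPKM in sham and 32.0 to 87.9 FPKM (median 42.6) in AAN, a change of -0.22 ± 0.34 (limma, adjusted p = 0.589). Slc3a2, the heavy subunit 4F2hc, had 42.6, 35.3, 48.8 and 52.4 FPKM in sham and 32.3 to 49.3 FPKM (median 39.9) in AAN, a change of -0.13 ± 0.17 (limma, adjusted p = 0.505). Slc7a7, the light subunit y+LAT1 that exports basic amino acids and is defective in lysinuric protein intolerance, had 49.0, 25.2, 36.4 and 42.1 FPKM in sham and 16.4 to 55.1 FPKM (median 35.6) in AAN, a change of -0.14 ± 0.32 (limma, adjusted p = 0.712). The groups of all 3 overlapped widely. Slc43a2, the uniporter LAT4, changed by -0.32 (adjusted p = 0.613). Slc38a3, the glutamine carrier SNAT3 that feeds ammonia formation, was 1.64, 2.27, 1.79 and 3.32 FPKM in sham and 0.661 to 4.02 FPKM (median 1.25) in AAN. The change of Slc38a3 was -0.52 ± 0.43 as deposited (limma, adjusted p = 0.312) and -1.24 after the median of ratios, where it was called lower. B614 had the highest level of all 5 basolateral genes among the AAN mice.

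The osmolyte and creatine carriers did not move together. Slc6a13 (chr6:121300227-121337733, plus strand), the GABA, taurine and betaine carrier GAT2, had 35.0, 27.5, 31.2 and 41.0 FPKM in sham and 9.15 to 18.9 FPKM (median 12.6) in AAN. Its groups did not overlap, and the change was -1.34 ± 0.21 (limma, adjusted p = 0.000219), or -2.08 relative to the median gene. Slc6a6, the taurine carrier, had 27.7, 7.64, 11.0 and 16.9 FPKM in sham and 17.9 to 43.2 FPKM (median 31.0) in AAN. The ranges overlapped through B607, and the change of 1.0 ± 0.35 (limma, adjusted p = 0.0277) was 0.24 after the median of ratios. The call of Slc6a6 was lost without sham mouse B634 (0.71) or B636 (0.89) and without AAN mouse A483 (0.95), B614 (0.88) or B666 (0.94). Slc6a8, the creatine carrier, had 27.4, 9.16, 17.4 and 14.8 FPKM in sham and 5.10 to 24.2 FPKM (median 14.4) in AAN, overlapping widely (-0.21 ± 0.41, limma, adjusted p = 0.673). Slc6a11 and Slc6a12 were under the minimum for testing, with AAN means of at most 0.0894 FPKM.

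Of 13 cell nutrition genes, 12 were tested, 10 were higher, against 35.8% of all genes, and none was lower, with a median log2 change of 1.64. After the median of ratios 6 were higher, against 19% of all genes, and none was lower. Slc7a3, Slc7a11 and Slc43a1 reached the test through their AAN level. Among the 9 with a sham mean of at least 0.1 FPKM, 7 were higher, against 30.5% of all such genes, and 4 after the median of ratios. Only Slc1a4 and Slc38a4 of those tested were not called, and Slc7a10 was not tested. The largest rise was that of Slc38a1 (ENSMUSG00000023169, chr15:96571418-96642913, minus strand), SNAT1. It had 0.415, 0.323, 0.326 and 0.347 FPKM in sham and 2.27 to 3.64 FPKM (median 3.07) in AAN. The change was 2.77 ± 0.19 (limma, adjusted p = 3.57e-07), and 2.11 after the median of ratios. The neighbouring Slc38a2 (chr15:96687392-96699730, minus strand), SNAT2, was the most abundant member of the group. It had 11.4, 7.76, 10.5 and 10.004 FPKM in sham and 22.6 to 40.9 FPKM (median 34.5) in AAN, a change of 1.73 ± 0.18 (limma, adjusted p = 9.27e-06). Slc38a4, on the same stretch of chromosome 15, averaged 0.446 and 0.583 FPKM and did not pass (0.29, adjusted p = 0.377). The lowest AAN mouse for Slc38a2 was B614.

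Slc1a5 (chr7:16781340-16798274, plus strand), the glutamine exchanger ASCT2, had 3.89, 7.5, 6.27 and 5.08 FPKM in sham and 12.1 to 23.3 FPKM (median 19.7) in AAN. All AAN mice were above all sham mice, B614 being the lowest of them, and the change was 1.75 ± 0.23 (limma, adjusted p = 4.26e-05). After the median of ratios Slc1a5 and Slc38a2 kept an adjusted p under 0.05 but changed by 0.99 and 0.97, just under 2-fold. Slc1a4, the related exchanger ASCT1 for serine, alanine and cysteine, had 6.02, 1.95, 2.60 and 4.63 FPKM in sham and 1.99 to 4.03 FPKM (median 3.12) in AAN. It did not pass (-0.21, adjusted p = 0.58), and it was called lower after quantile normalization.

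Slc7a5 and Slc7a6, light subunits of 4F2hc, rose. Slc7a5 (ENSMUSG00000040010, chr8:121881150-121907694, minus strand), LAT1, had 0.437, 0.337, 0.437 and 0.760 FPKM in sham and 3.03 to 3.95 FPKM (median 3.19) in AAN. The change was 2.58 ± 0.20 (limma, adjusted p = 8.85e-07). Slc7a6 (chr8:106168857-106198706, plus strand), y+LAT2, had 1.5, 0.744, 0.749 and 0.829 FPKM in sham and 4.57 to 6.32 FPKM (median 5.57) in AAN, a change of 2.46 ± 0.20 (limma, adjusted p = 1.26e-06). Neither gene overlapped between groups, and the AAN mice lay close together, with SDs of 0.389 and 0.603 FPKM. Even so, both stayed minor light subunits. Of the summed level of the 5 light subunits Slc7a5, Slc7a6, Slc7a7, Slc7a8 and Slc7a11, Slc7a5 held 0.334 to 0.683% in sham and 2.0 to 5.77% in AAN. The share of Slc7a6 was 0.745 to 1.39% and 3.41 to 9.64%. Slc7a8 held the largest share in all mice but B642, at 51.0 to 61.1% in sham and 44.6 to 58.1% in AAN, and Slc7a7 held 28.5 to 47.2% over the 10 mice.

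Slc7a11 (chr3:49892526-50443614, minus strand), the cystine importer xCT that feeds glutathione synthesis, was among the lowest members tested. It was listed at 0 in 2 sham mice and at 0.0116 and 0.00387 FPKM in the others, and at 0.111 to 0.316 FPKM (median 0.139) in AAN, a mean worth at most 39.6 fragments per mouse. The groups did not overlap, and the change was 1.39 ± 0.27 (limma, adjusted p = 0.000802). With 1 FPKM added in place of 0.1 it was 0.23, and by quantile normalization 0.17 (limma, adjusted p = 0.568), so the call was lost. Without B642 or B666 the gene fell under the minimum for testing. The light subunits of the cystine carriers at the brush border and of xCT were also compared within mice: Slc7a11 minus Slc7a9 went from -7.92 to -6.27, a change of 1.65 ± 0.30 without overlap of the groups (exact permutation p = 0.00476, adjusted p = 0.0111). It was 0.48 with 1 FPKM added and 0.83 after quantile normalization, and then missed the threshold. The added 0.1 FPKM exceeds the level of Slc7a11 in every sham mouse, so a scaling factor between mice can move this difference.

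Stretches of the promoters of Slc7a11, Slc1a4 and Slc7a7 are shown because they alone among the members searched hold the core of the C/EBP and ATF response element. Through this element ATF4 acts on amino acid starvation genes. The core searched was TGATGCAA on both strands, from 250 bases before to 50 after the start, in RefSeq promoters on GRCm38.p6, which matched 45 of the 62 members. It lay in 3 of these 45 and in 1.03% of 27025 genes. Allowing any base at one position (TGATGNAA) added no member, and 4.51% of genes held it. The first 9 letters of the palindromic HNF1 site, GTTAATNAT, were also searched and lay in 0 of the 45 members and in 0.94% of genes. Capitals mark the matches, each line runs 5′ to 3′ on the minus strand, and the windows are chr3:50443623-50443709, chr11:20332704-20332747 and chr14:54417935-54417975.
Slc7a11: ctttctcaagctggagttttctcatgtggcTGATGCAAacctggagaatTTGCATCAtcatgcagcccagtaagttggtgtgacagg
Slc1a4: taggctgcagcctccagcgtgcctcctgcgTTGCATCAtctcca
Slc7a7: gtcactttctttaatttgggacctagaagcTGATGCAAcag
Slc7a11 holds the core 2 times, once in each direction, at positions -66 and -47 from the start. Of the 3 genes, Slc7a11 rose, and Slc1a4 and Slc7a7 did not pass the test. A match is a description of letters and not a measured site.

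Low levels were also seen for the arginine and lysine importers. Slc7a1, CAT1, averaged 0.433 ± 0.257 FPKM in sham and 1.93 ± 0.479 in AAN, a change of 2.01 (limma, adjusted p = 0.000121) with no overlap, and 1.36 after the median of ratios. By quantile normalization it was 0.81, under 2-fold. Slc7a2, CAT2, which activated macrophages express, was 0.351, 0.211, 0.376 and 0.310 FPKM in sham and 0.523 to 3.68 FPKM (median 0.764) in AAN. AAN mouse B666 and then B614, at 1.91 FPKM, were well above the other 4, and the change was 1.55 ± 0.46 (limma, adjusted p = 0.0116). It was not called after the median of ratios (0.92, limma, adjusted p = 0.106) or quantile normalization (0.28). Slc7a3, CAT3, and Slc43a1, the uniporter LAT3, reached at most 0.332 and 0.311 FPKM in any mouse and were called higher, at 1.13 and 1.39. Both had sham means under 0.1 FPKM. After the median of ratios Slc43a1 was called (1.09) and Slc7a3 was not (0.84), and by quantile normalization neither was, at 0.013 and -0.13.

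**Figure D3:**
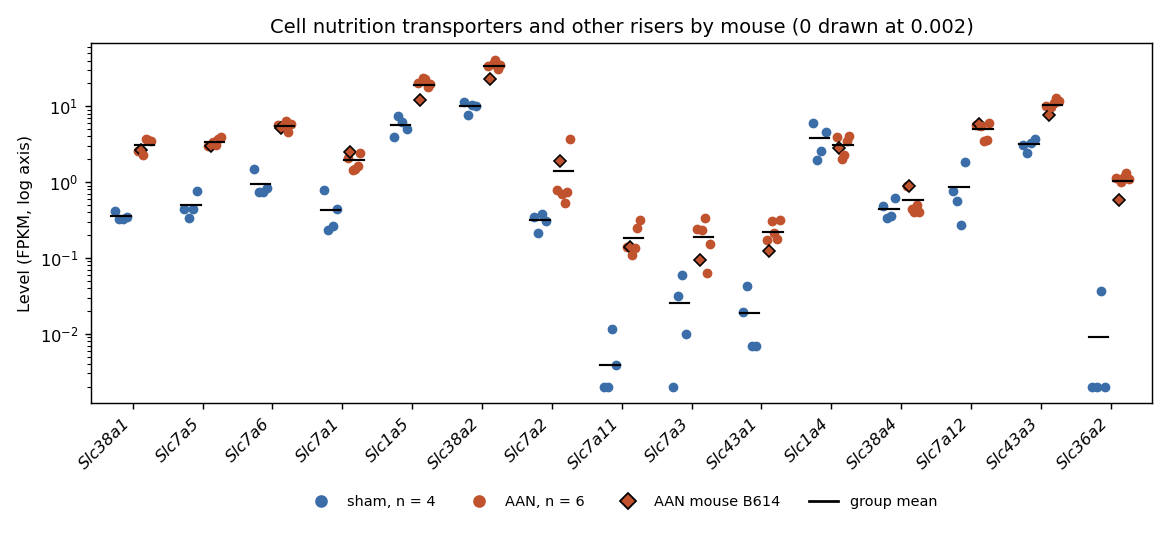
Levels (FPKM, log axis, 0 drawn at 0.002) of the cell nutrition genes and of Slc7a12, Slc43a3 and Slc36a2 in each mouse; diamonds mark AAN mouse B614 and lines are group means. Slc38a1, Slc7a5 and Slc7a6 form tight AAN groups at 2.27 to 6.32 FPKM above all sham mice, and Slc1a4 overlaps.

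Within mice, a nutrition carrier gained on a carrier grouped as basolateral: Slc7a5 on Slc7a8 and, in all AAN mice but B614, Slc38a2 on Slc38a3. Slc7a5 minus Slc7a8, both large neutral amino acid light subunits, went from -6.53 to -3.74, a change of 2.80 ± 0.35 (exact permutation p = 0.00476, adjusted p = 0.0111). Every AAN mouse was above every sham mouse, B614 being the closest to them. For the glutamine carriers, Slc38a2 minus Slc38a3 went from 2.13 to 4.37, a change of 2.25 ± 0.53 (exact permutation p = 0.0238, adjusted p = 0.0333). B614, at 2.47, lay within the sham range of 1.56 to 2.72 and the other 5 AAN mice lay above it, and the adjusted p became 0.0556 without sham mouse B634 (2.12) and 0.0667 without H249 (2.06). The heavy subunits are not such a pair, and Slc3a2 is counted here among the basolateral genes. Their difference, Slc3a2 minus Slc3a1, went from -1.79 to -1.08, a change of 0.72 ± 0.35 (exact permutation p = 0.0381, adjusted p = 0.0444). The heavy subunit groups overlapped, and the adjusted p ranged from 0.00926 to 0.153 when single mice were left out, passing without B634, B636 or B614 and missing the threshold without any one of the other 7 mice, with changes between 0.42 and 0.73 there.

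**Figure D4:**
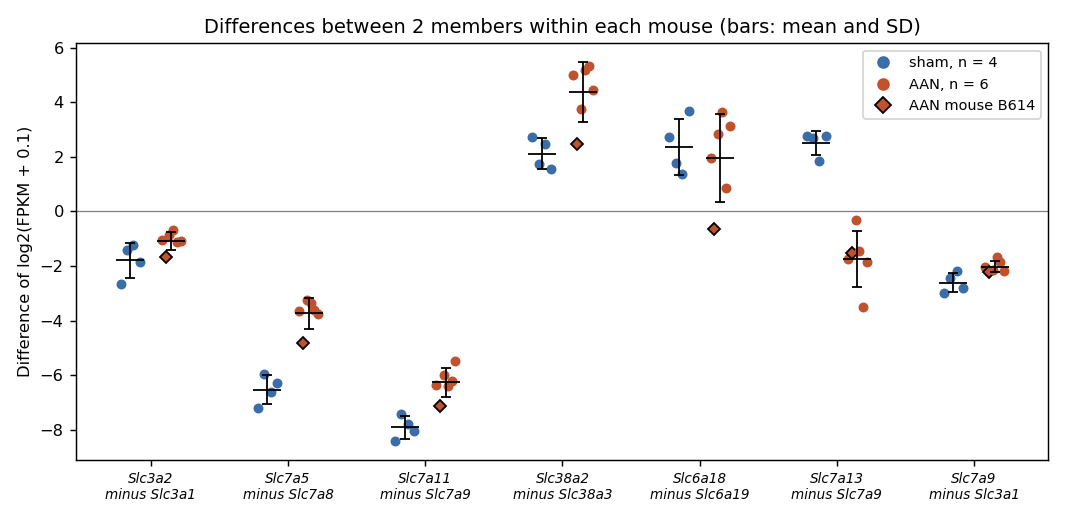
Difference between 2 members within each mouse, on log2(FPKM + 0.1), for the 7 pairs; points are mice, diamonds mark AAN mouse B614, and bars give the group mean and SD. Slc7a13 minus Slc7a9 drops from a mean of 2.52 to -1.73 and Slc7a5 minus Slc7a8 rises from -6.53 to -3.74, both without overlap, while Slc6a18 minus Slc6a19 overlaps.

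Among carriers outside these groups, Slc7a12 (chr3:14480697-14505830, plus strand), a relative of Slc7a13 known as Asc-2, rose. It had 0.770, 0.568, 0.273 and 1.86 FPKM in sham and 3.51 to 6.04 FPKM (median 5.54) in AAN, a change of 2.63 ± 0.38 (limma, adjusted p = 0.000106). Slc7a12 and Slc7a13, whose coding sequences are 57.9% identical, thus moved in opposite directions without overlap of the groups in either case, and this also held after the median of ratios (1.93 and -5.27). By mean level Slc7a13 was above Slc7a12 in AAN, at 7.07 against 5.00 FPKM. By mouse, Slc7a13 was the higher in A483, B614, B630 and B639. It was the lower in B642 (2.22 against 3.60 FPKM) and B666 (5.12 against 6.04 FPKM). Slc43a3 (chr2:84936579-84958509, plus strand), which carries purine nucleobases, had 3.06, 2.44, 3.28 and 3.74 FPKM in sham and 7.57 to 12.6 FPKM (median 10.6) in AAN, a change of 1.70 ± 0.18 (limma, adjusted p = 8.02e-06) and 0.96 after the median of ratios. Slc38a6 averaged 0.865 and 2.56 FPKM (1.43, limma, adjusted p = 0.00101) and was not called after the median of ratios (0.72, limma, adjusted p = 0.0781), and 35.5% of its exonic windows also occur in other genes. Slc7a6os, the neighbour of Slc7a6, had 8.31, 13.9, 15.3 and 11.7 FPKM in sham and 12.9 to 23.9 FPKM (median 20.4) in AAN, a change of 0.69 ± 0.21 (limma, adjusted p = 0.0149) that was -0.074 after the median of ratios.

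Of the 4 lysosomal carriers tested, 1 was higher, against 35.8% of all genes, and 0 after the median of ratios. Slc38a9, the arginine sensor upstream of mTORC1, averaged 1.31 ± 0.312 FPKM in sham and 3.02 ± 0.473 in AAN, a change of 1.16 (limma, adjusted p = 0.000308) without overlap, and 0.44 after the median of ratios. Slc36a1, the proton-coupled carrier PAT1, had 20.2, 7.42, 11.5 and 14.1 FPKM in sham and 0.753 to 15.0 FPKM (median 12.0) in AAN. The low value was that of B639, the other 5 AAN mice overlapped sham, and the change of -0.73 ± 0.70 (limma, adjusted p = 0.378) was -0.10 without B639. Slc38a7, the lysosomal glutamine exporter, averaged 5.16 and 6.62 FPKM (0.38, adjusted p = 0.0976).

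Carriers grouped as transmitter-type, most but not all of them known from nerve and glia, were mostly near 0. Of 13, 6 were tested and 1, Slc1a2, was called higher, where 35.8% of all genes were. Slc1a2 averaged 0.182 FPKM in sham and 0.575 in AAN (1.2, limma, adjusted p = 0.00291). After the median of ratios Slc1a2 was not called (0.64, limma, adjusted p = 0.0645), and 2 of the 6, Slc6a15 among them, were called lower, against 10.5% of all genes. Slc6a15, a carrier of branched-chain amino acids and proline, was the most abundant of them, at 7.10 ± 0.969 FPKM in sham and 5.86 ± 1.23 in AAN (-0.29, adjusted p = 0.19), and after the median of ratios it was called lower (-1.04). Slc6a9, the glycine carrier GlyT1, averaged 2.29 and 3.76 FPKM and passed the adjusted p alone (0.67, limma, adjusted p = 0.0307), with 26.3% of its exonic windows shared with overlapping genes. The opposite-strand genes Slc36a3os and Slc6a19os were called higher on little data. Slc36a3os was listed at 0 in all sham mice and in B614, and its AAN mean of 0.594 FPKM was worth at most 4.83 fragments per mouse.

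Genes that work with these carriers were read from fixed lists. Of 10 tested genes of other amino acid and peptide transport, 3 were lower and 1 higher, against 3.43% and 35.8% of all genes, and the counts after the median of ratios were again 3 and 1. Cltrn, the partner that brings B0AT1 and B0AT3 to the brush border, averaged 453 FPKM in sham and 219 in AAN (-1.12, limma, adjusted p = 0.0031). Of 15 genes of the amino acid stress response, 8 were higher and 2 lower, against 35.8% and 3.43% of all genes, and after the median of ratios 5 were higher and 2 lower. Atf4, its transcription factor, averaged 74.0 and 100 FPKM and did not pass (0.40, limma, adjusted p = 0.113). Asns, asparagine synthetase, averaged 0.598 and 3.82 FPKM and was among those called higher (2.43, limma, adjusted p = 4.93e-06). Sesn2 (18.5 and 17.6 FPKM, -0.071) and Psat1 (5.22 and 4.52 FPKM, -0.16), more abundant than Asns, did not pass. Activity of ATF4 was not tested. The 2 called lower were Shmt2 of mitochondrial serine metabolism (-1.55) and Cth of cysteine synthesis (-1.59). Hnf4a, a transcription factor of the proximal tubule, fell from 92.1 to 42.2 FPKM (-1.15, limma, adjusted p = 0.00318).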

How the data were processed

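Total RNA from the kidney cortex of 10 mice was sequenced as paired-end libraries. The authors removed rRNA, adapter and low-quality reads, aligned with HISAT2 to the mouse genome (mm10 in the processing notes) and computed the deposited FPKM with StringTie, one value per Ensembl gene and mouse. Use of strand and the annotation release are not given in the sources used here. The authors called differences with edgeR at the limits used here. Because FPKM are not counts, limma 3.58.1 (R 4.3.3; lmFit, eBayes with trend and robust) was fitted to log2(FPKM + 0.1) of the 17129 genes that averaged 0.1 FPKM or more, with Benjamini-Hochberg adjustment over all of them (called at an adjusted p up to 0.05 with a fold from 2 up or from 0.5 down). A fold change on this scale understates the change of low genes. The fit was tested on simulated data.

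Symbols, positions and overlaps came from GENCODE M21 (GRCm38). Depth was recovered from values under 0.3 FPKM, of which 94.6 to 96.9% were whole fragments within 0.05; with StringTie's estimates this is approximate, and precision of a low level covers counting error only. Pairs were tested by exact two-sided permutation over 210 splits, adjusted over 7 pairs. Alternatives were the value added (0.01 and 1 FPKM), the filter (none, and 1 FPKM), median of ratios, quantile normalization, the fit without trend and robust, no fold limit, mice with B tags, and each mouse left out. Named with values per mouse were members with a mean of at least 10 FPKM in either group, the 5 largest rises and falls called with a mean of at least 1 FPKM, and the pairs. Members were picked by symbol and not by level, but members, lists and pairs were all chosen with earlier results of these data known. The labels name each animal with its own tag, and p-values measure the spread between these animals. Some genes of the lists and families are not reported here. Python 3.11.15 with scipy 1.17.1 was used.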

Additional observations from a re-analysis of the deposited data

Results flagged for a closer look

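Dixon's test at the 95% level was applied to the levels of the named members within each group of 4 or 6 mice. Of 50 groups examined, 3 were flagged, and chance gives 1 in 20, or 2.5. Slc6a19 was 59.6 FPKM in AAN mouse B614 against 3.66 to 18.2 FPKM in the other 5 AAN mice. Slc7a6 was 1.5 FPKM in sham mouse B607 against 0.744 to 0.829 FPKM in the other 3 sham mice. Slc36a2 was 0.0362 FPKM in sham mouse B636 and listed at 0 in the other 3. With the others all at 0 the test flags any level above 0, so this flag does not show that B636 lay far from them.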

How the results depend on the processing

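No paired analysis was possible because the labels give each mouse its own tag and no number shared between groups. The count of members called higher (20) was 9 with 1 FPKM added, 11 among genes averaging 1 FPKM or more, 10 after rescaling to the median of ratios, 8 with quantiles matched and 8 relative to the median change of all genes, an alternative added after seeing the data. The count called lower (4) was 10 after rescaling to the median of ratios, 7 by quantile normalization and 2 among mice with B tags. Leaving out single mice gave 18 to 21 higher and 3 to 5 lower. Over all genes, 6126 called higher became 2909, 4025, 3261 and 2232 in the same first 4 settings and 9482 with no fold limit, and 588 called lower became 1801 after the median of ratios, 2157 with quantiles matched and 1027 with no fold limit. Leaving out single mice gave 5488 to 6684 and 524 to 703. Among pairs, Slc3a2 minus Slc3a1 missed the threshold with 1 FPKM added (0.71), by quantile normalization (0.50) and among mice with B tags (0.69), and ranged from 0.42 to 0.90 over single mice left out. Slc7a11 minus Slc7a9 missed it with 1 FPKM added (0.48) and by quantile normalization (0.83), Slc38a2 minus Slc38a3 among mice with B tags (1.94; 2.05 to 2.63 over mice left out), and Slc7a9 minus Slc3a1 by quantile normalization (0.21) and among mice with B tags (0.53). Slc6a18 minus Slc6a19 changed sign by quantile normalization (0.00046), among mice with B tags (0.021) and over mice left out (-0.75 to 0.11). Slc7a6os was -0.074 by the median of ratios. Over mice left out, Slc6a19 ranged from -0.71 to 0.084, Slc6a8 from -0.47 to 0.074 and Slc7a7 from -0.33 to 0.065, none of them called. The cause of these shifts was not tested. Depth limits the low members most: the AAN means of Slc7a11 and Slc36a3os rest on at most 39.6 and 4.83 fragments per mouse.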
